A study of Mus musculus with 45 samples.

Results

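The 112 heavy chain variable segments are the genes that the deposited tables class as IG_V_gene and whose symbols start with Ighv. They make up 112 of the 28196 genes in the tables. All 112 identifiers and symbols matched the GENCODE M21 annotation of GRCm38. In that build they lie on the minus strand of chromosome 12, from chr12:113578504 out to chr12:116000461. At the first position stands Ighv5-2, the nearest of the 112 to the D segments (pseudogenes not ranked). They form 52 Ighv1 segments and smaller families such as Ighv5 (10), Ighv2 (9), Ighv3 (6), Ighv6 (5), Ighv7 (4), Ighv9 (4) and Ighv10 (2).

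Antibody heavy chains are assembled in developing B cells, when the RAG recombinase joins 1 V segment to a D and a J segment on each rearranged allele. The V segment so joined brings its own promoter next to the intronic enhancer, and its exons code for the leader and most of the antigen-binding domain. The V segments read in a pool of B cells therefore reflect which rearrangements those cells carry, and how much heavy chain RNA each cell makes, which rises when B cells turn into antibody-secreting plasmablasts and plasma cells. In these bulk libraries more cells with a given rearrangement and more RNA per such cell cannot be told apart.

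RNA was sequenced from C57BL/6 mouse spleen B2 cells (the follicular and marginal zone B cells, separated from B1 cells by depletion of CD43-positive cells) in 45 libraries of 15 groups of 3. Wild type groups were the uncultured B cells at day 0, the TLR and BCR cultures at days 4, 7 and 10, and the LPS culture at days 4 and 7. The mutant groups were TLR, BCR and LPS cultures at days 4 and 7 from Prdm1Δex1A mice (dEx1A here), which lack exon 1A of Prdm1. Prdm1 encodes Blimp-1, a repressor that plasma cells depend on. Per the labels' protocols, TLR cells received CD40L-expressing feeder cells, LPS at 5 µg/mL and the cytokines IL-4 and IL-5, both at 50 ng/mL. BCR cells received the same mixture with F(ab')2 antibody to IgM and IgG at 12 µg/mL in place of LPS. Feeders were left behind at day 2, and IL-6 (10 ng/mL) and APRIL (100 ng/mL) were given from day 4. The make-up of the LPS culture is not given in the sources used here. Males of 7 weeks are labelled as the source of the day 0 and wild type TLR and BCR libraries, and females of 9 weeks as that of wild type LPS and all dEx1A libraries, whereas the protocol calls the mice matched for sex and age. As labelled, genotype cannot be told apart from sex and age in the TLR and BCR comparisons, nor LPS culture from them against day 0. The labels do not say that the 3 libraries of a group came from separate mice, so p-values measure the spread between libraries, which may be technical.

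The values are the authors' log2 variance-stabilised expression, and differences in log2 units are understated for segments with few reads. Levels and shares were obtained by turning these values back to a linear, normalised scale, where the reads behind each value could be recovered. Libraries held 15.1 to 35.6 M reads assigned to genes. The Ighv segments took 20795 to 23970 reads in the day 0 libraries, at least 14099 in any library and up to 2046160 at TLR day 10. A total of 91 segments were above the value of a count of 0 in all 45 libraries. By sequence, 31 segments had a near-identical relative (at least 97% over the V exon). A median of 95.2% of the 76-base windows of a segment, the read length, were unique to it. Uniqueness was checked only among the Ighv segments and pseudogenes. Ighv1-62-2 and Ighv1-71 had identical V exons, and Ighv1-72 was 99% identical to Ighv1-62-3 with 29.6% of its windows unique, so reads of these segments may have been split between copies. All 8 B cell markers (Cd79a, Ms4a1 and others) were above the value of a count of 0 in every group, and their summed level was 200594 to 209025 at day 0 and 33289 to 118231 in the cultures. The summed level of 7 T cell markers was at most 1773.

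Ighv10-3 and Ighv10-1 are shown first because the shares of these close relatives diverged in the BCR culture. The last 300 bases of each V exon are printed 5′ to 3′ from the GENCODE M21 transcripts, Ighv10-3 from chr12:114523441-114523740 and Ighv10-1 from chr12:114479005-114479304. The 10 capitals mark the bases at which the pair differed (96.7% identity over the stretch).
Ighv10-3: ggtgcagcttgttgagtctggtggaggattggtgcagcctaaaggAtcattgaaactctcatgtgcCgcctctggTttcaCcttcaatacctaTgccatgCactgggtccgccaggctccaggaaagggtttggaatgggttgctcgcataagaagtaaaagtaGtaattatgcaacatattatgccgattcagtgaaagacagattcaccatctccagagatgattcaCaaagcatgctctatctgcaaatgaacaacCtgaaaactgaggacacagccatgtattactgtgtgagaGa
Ighv10-1: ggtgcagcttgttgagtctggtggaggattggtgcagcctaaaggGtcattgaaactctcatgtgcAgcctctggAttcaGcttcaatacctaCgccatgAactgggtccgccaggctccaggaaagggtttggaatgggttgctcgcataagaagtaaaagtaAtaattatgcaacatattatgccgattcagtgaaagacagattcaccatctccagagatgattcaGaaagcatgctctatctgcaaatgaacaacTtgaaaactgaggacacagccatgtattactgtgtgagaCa

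Segments that led before culture (Ighv1-26), that were among the 3 highest per base at BCR day 10 (Ighv3-6, Ighv6-6) or that held the largest mean share at dEx1A LPS day 7 (Ighv7-3) are printed next, again as the last 300 bases of the V exon on the minus strand of GRCm38. Ighv1-26 lies at chr12:114788372-114788671, Ighv3-6 at chr12:114288152-114288451, Ighv6-6 at chr12:114434788-114435087 and Ighv7-3 at chr12:114153180-114153479. Capitals mark the codon of the conserved cysteine at the end of the V region, where the joined CDR3 begins.
Ighv1-26: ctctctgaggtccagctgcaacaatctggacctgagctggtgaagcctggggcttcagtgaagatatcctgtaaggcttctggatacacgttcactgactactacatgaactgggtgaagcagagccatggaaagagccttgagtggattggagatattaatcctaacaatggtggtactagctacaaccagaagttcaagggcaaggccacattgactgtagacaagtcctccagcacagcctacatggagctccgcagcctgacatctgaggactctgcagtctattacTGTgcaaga
Ighv3-6: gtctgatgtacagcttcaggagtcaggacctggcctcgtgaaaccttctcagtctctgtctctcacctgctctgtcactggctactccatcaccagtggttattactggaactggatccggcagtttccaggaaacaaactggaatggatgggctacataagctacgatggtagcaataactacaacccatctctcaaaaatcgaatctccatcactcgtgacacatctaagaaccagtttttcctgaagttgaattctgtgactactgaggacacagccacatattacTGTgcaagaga
Ighv6-6: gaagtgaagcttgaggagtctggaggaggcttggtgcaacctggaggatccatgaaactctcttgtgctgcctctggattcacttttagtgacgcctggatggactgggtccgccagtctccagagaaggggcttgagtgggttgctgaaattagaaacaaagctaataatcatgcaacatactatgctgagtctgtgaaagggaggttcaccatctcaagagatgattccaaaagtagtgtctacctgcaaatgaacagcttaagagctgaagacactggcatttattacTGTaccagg
Ighv7-3: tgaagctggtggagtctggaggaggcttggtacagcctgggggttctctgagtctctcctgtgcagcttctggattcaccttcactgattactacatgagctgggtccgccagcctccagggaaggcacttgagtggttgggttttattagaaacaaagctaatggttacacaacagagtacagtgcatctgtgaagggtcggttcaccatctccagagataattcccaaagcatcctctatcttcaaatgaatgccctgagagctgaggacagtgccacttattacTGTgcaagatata

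A last pair set the wild type LPS libraries apart from all others, Ighv5-16 at chr12:113838526-113838825 and Ighv7-2 at chr12:113912025-113912324, printed in the same way. All 76-base windows of both were unique among the Ighv segments and pseudogenes, although Ighv7-2 was 95.2% identical to Ighv7-3.
Ighv5-16: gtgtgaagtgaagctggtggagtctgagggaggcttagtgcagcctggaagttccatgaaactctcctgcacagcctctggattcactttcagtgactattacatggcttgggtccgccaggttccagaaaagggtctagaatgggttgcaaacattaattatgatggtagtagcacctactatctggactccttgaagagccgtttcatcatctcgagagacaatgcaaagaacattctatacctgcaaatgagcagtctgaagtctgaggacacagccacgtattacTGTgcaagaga
Ighv7-2: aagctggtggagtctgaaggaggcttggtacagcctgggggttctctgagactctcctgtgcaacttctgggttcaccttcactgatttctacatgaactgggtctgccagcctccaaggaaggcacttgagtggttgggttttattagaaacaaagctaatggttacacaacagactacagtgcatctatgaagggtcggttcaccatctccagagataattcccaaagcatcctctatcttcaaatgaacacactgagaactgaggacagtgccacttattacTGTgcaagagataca

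The 6 wild type LPS libraries differed from the other 39 in the V segments to which their reads were assigned. Whether these reads came from the reference segments named was not tested. Ighv5-16 had 0 reads in each of the 6, which allows a share of at most 0.00212% of the Ighv reads in the shallowest of them (counting error only), against 167 to 40206 reads in every other library. Ighv1-49 also had 0 reads in all 6 and 5 to 1437 elsewhere. Ighv7-2 went the other way, with 1093 to 4117 reads in the wild type LPS libraries and 0 to 2 in the rest. Ighv8-11 had 1828 to 4322 reads against 1 to 58, and Ighv2-9 took 4.33 to 6.22% of the summed Ighv level against 0.222 to 1.33%. Segments annotated as Ighv pseudogenes summed to 11.5 to 14.6 per 100 Ighv in these 6 libraries and to 0.0325 to 1.07 in the other 39, led by Ighv1-14 (2778 to 15364 reads against 0 to 67) and Ighv3-2 (5688 to 14636 reads against 4 to 83).

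For a pair of libraries, the overlap of V usage was the sum over segments of the lower of both shares. Wild type LPS libraries overlapped by 78.6 to 92.7% among themselves and by 45.6 to 65.5% with any other library. The wild type day 0, TLR and BCR libraries overlapped among themselves by a median of 85.3% (61.9 to 95.8%). The dEx1A libraries overlapped among themselves by a median of 75.5% (55.5 to 94.6%), and with wild type day 0, TLR and BCR by 54.1 to 93.3%, so the lowest of these overlaps lay within the range of wild type LPS against the rest. All labels give the C57BL/6 background, and the protocol names C57BL/6, Blimp-1-Venus and Prdm1Δex1A mice without saying which libraries came from which wild type mice. The difference is therefore stated as measured, and every comparison with wild type LPS libraries carries it. Comparisons without them are given first.

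**Figure D1:**
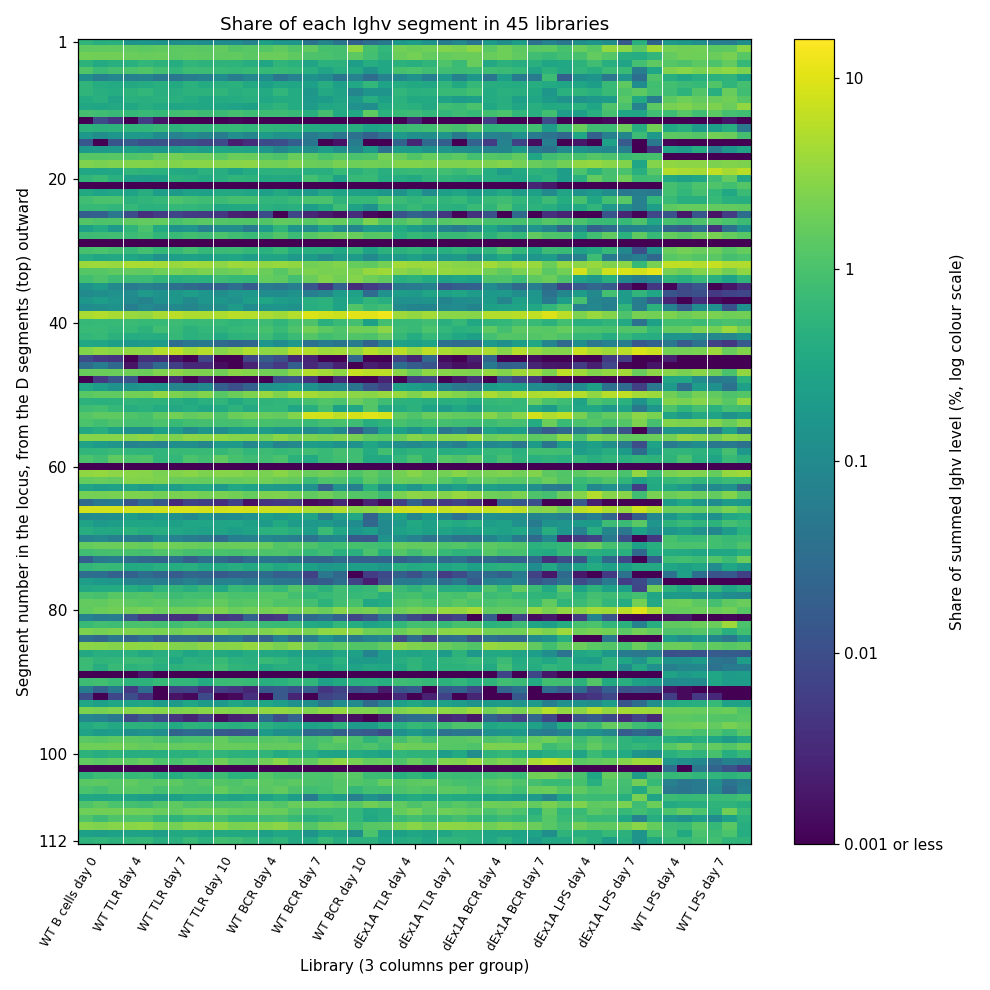
Share of each of the 112 Ighv segments in the summed Ighv level (percent, log colour scale) in 45 libraries, with segments in locus order from the D segments at the top. The 6 wild type LPS columns at the right differ from the other 39 columns in rows across the locus, including rows that are dark in 1 set and bright in the other.

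Before culture the V repertoire was broad and nearly the same in the 3 libraries. Their shares overlapped by 94.2 to 95.3%, and it took 17 to 18 segments to reach 50% of the summed level. Ighv1-26 was the highest segment per base, with 8.30%, 8.24% and 8.58% of the summed Ighv level in the 3 libraries. Ighv3-6 came next per base (4.83% of the mean level), then Ighv9-3 (3.75%), Ighv1-18 (3.22%) and Ighv6-3 (2.85%), followed by Ighv8-8, Ighv1-9, Ighv1-82, Ighv1-22 and Ighv5-17. Ighv1-26 stood clear of its followers, whose library values lay below 5.4%. Level and position in the locus were weakly related, with a Spearman rho of 0.10 over the 112 segments between level and order from the D segments, given as a description because the segments share libraries.

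The summed level of the 112 segments followed the days of culture. It was 16310, 16899 and 17890 normalised reads in the 3 libraries at day 0 and 33860, 28960 and 30840 at TLR day 4, a fold of 1.83 between group means. It then reached 1102600 to 1270622 at TLR day 7 (38.8-fold over day 4) and 2798148 to 3492361 at day 10 (2.61-fold over day 7). The groups of this culture did not overlap at any step, and Ighv RNA made up 0.10% of all levels at day 0 and 7.03% at TLR day 10. In the BCR culture the sum was 17538, 15164 and 20874 at day 4, overlapping day 0, then 564655 to 853445 at day 7 (38-fold over day 4). At BCR day 10 the 3 libraries read 1211339, 746594 and 2631173, so that replicate 2 lay within the range of day 7 and replicate 3 above all other BCR libraries.

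**Figure D2:**
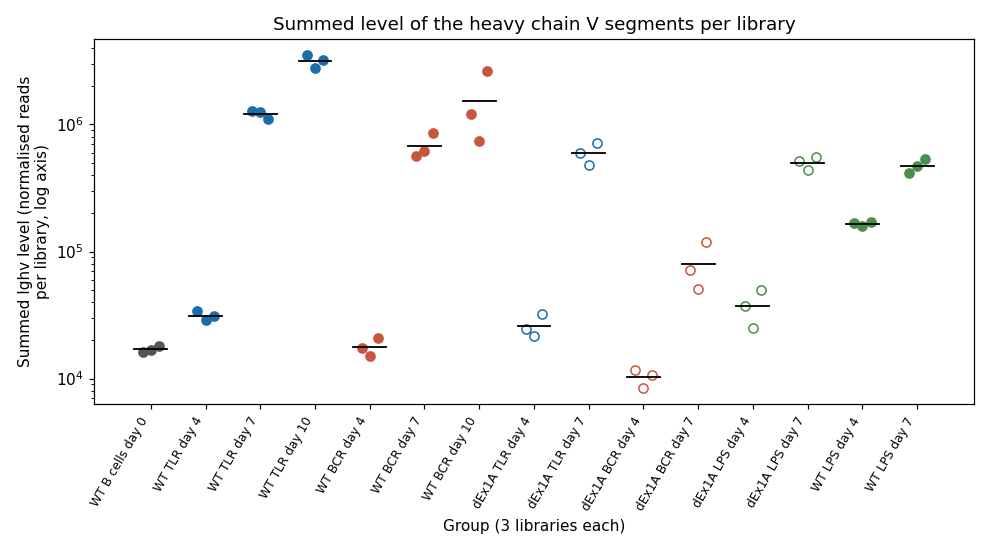
Summed normalised level of the 112 Ighv segments in each library (normalised reads, log axis), with filled points for wild type, open points for dEx1A and bars for the mean of 3 libraries. Wild type day 7 libraries of the TLR and BCR cultures sit between 564655 and 1270622, and the dEx1A BCR day 7 libraries between 50958 and 117960.

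The rise ran through nearly the whole locus. Between TLR days 4 and 7, 105 of 108 segments tested rose and 0 fell (limma, Benjamini-Hochberg adjusted p below 0.05), while 17.7% of all 19497 genes tested rose and 36.3% changed in either direction. The median difference over the segments was 5.04 log2 units, beside -0.06 over all genes. From day 7 to day 10, 61 of 108 rose and 0 fell (3.51% of all genes rose, 4.69% fell and 8.2% did either), with a median of 1.37, and without day 7 replicate 3 the count was 33. Over the whole TLR course, day 10 against day 0, 107 of 108 rose (22.9% of all genes rose and 46% changed) with a median of 7.21. The segments with the largest rises over that course were Ighv7-3 (8.07, SE 0.37, adjusted p = 8.26e-12), Ighv6-6 (7.94, SE 0.34) and Ighv6-3 (7.85, SE 0.37). The falls called were 0 in all 3 of these comparisons, and at an unadjusted p below 0.05 a single segment lay lower, between days 7 and 10. By voom on the recovered reads 104, 60 and 105 segments were called.

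Part of the locus was higher after 4 days of TLR culture, a result that depended on the processing. At day 4, 31 of 108 segments were above day 0 and 0 below, against 24.9% of all genes above, 23.5% below and 48.3% either, so the share called was near the background, while the median difference was 0.67 against 0.01 over all genes. The count was 14 without TLR day 4 replicate 1 and 18 without day 0 replicate 1, and with only the libraries of both groups in the fit the higher calls were 68 and the lower ones 3. After a correction of each library for GC content and length, 0 were higher and 10 lower, so the direction of the calls at day 4 turned with this choice. By voom 22 were higher and 1 lower. Ighv11-2, a segment typical of B1 cells, had log2 values of 5.81, 6.35 and 5.58 at day 0 and 7.68, 8.27 and 7.05 at TLR day 4, all above day 0 (difference 1.75, SE 0.54, adjusted p = 0.0123). Replicate 2 was highest in both groups. The other largest rises were those of Ighv10-1 (1.53, SE 0.39, adjusted p = 0.00362) and Ighv1-19 (1.46, SE 0.30, adjusted p = 0.000528). The share of Ighv12-3, also typical of B1 cells, fell. It was 0.235 to 0.317% of the summed Ighv level at day 0 and 0.176 to 0.209% at TLR day 4. Its log2 values were 5.84 to 6.07 and 6.23 to 6.27. Ighv11-1 and Ighv11-2 together held 0.229 to 0.409% at day 0 and 0.0771 to 0.16% at TLR day 7. Whether the part of B1 cells changed was not tested.

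In the BCR culture only 1 of 108 segments passed the test at day 4 against day 0, while 26.1% of all genes were higher, 24.5% lower and 50.6% either. It was Ighv10-1, with 7.86, 8.09 and 8.14 at day 0 and 9.34, 8.59 and 9.82 at BCR day 4, all above day 0 (SE of the difference 0.39, adjusted p = 0.0152). The median over the segments was -0.03, no segment was lower at the adjusted threshold, and 2 were higher and 3 lower at an unadjusted p below 0.05. By voom 3 were called, without day 0 replicate 1 the count was 0, with only the libraries of both groups in the fit 8 were higher and 13 lower, and after the GC and length correction 35 were lower and 0 higher. From day 4 to day 7, 102 of 108 rose (15.3% of all genes) with a median of 4.59. Ighv10-3 led with log2 values of 8.28, 7.96 and 9.11 at day 4 and 15.52, 15.64 and 15.69 at day 7, a difference of 7.17 (SE 0.34, adjusted p = 1.54e-10). Ighv3-6 rose by 6.05 (SE 0.36) and Ighv6-6 by 6.02 (SE 0.34). Day 10 stood above day 0 for 99 of 108 segments (29.5% of all genes) with a median of 5.22.

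From BCR day 7 to day 10, 32 of 108 segments rose and 1 fell, against 10.8% and 5.91% of all genes, with a median of 0.70. The count moved with single libraries. It was 64 in all without BCR day 10 replicate 2, 15 without day 10 replicate 3 or without day 7 replicate 2, and 18 without day 7 replicate 1, and with only the 6 libraries of both days in the fit it was 0. The largest rises were those of Ighv3-5 (2.17, SE 0.33), Ighv6-6 (1.61, SE 0.34) and Ighv3-8 (1.61, SE 0.41). The fall was that of Ighv8-2, with 9.69, 9.08 and 9.59 at day 7 and 9.03, 6.78 and 7.58 at day 10 (-1.66, SE 0.41, adjusted p = 0.00974). At day 10 the summed level of 8 myeloid markers ran from 29418 to 218874 in the BCR libraries and from 8766 to 65295 in the TLR libraries, against 2434 to 2924 at day 0. All 8 were above the value of a count of 0 there, and Lyz2, the macrophage lysozyme, read 16.66, 16.39 and 13.50 in BCR replicates 1, 2 and 3, low in the replicate with the highest Ighv level. The part of these cells in the day 10 values was not tested.

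**Figure D3:**
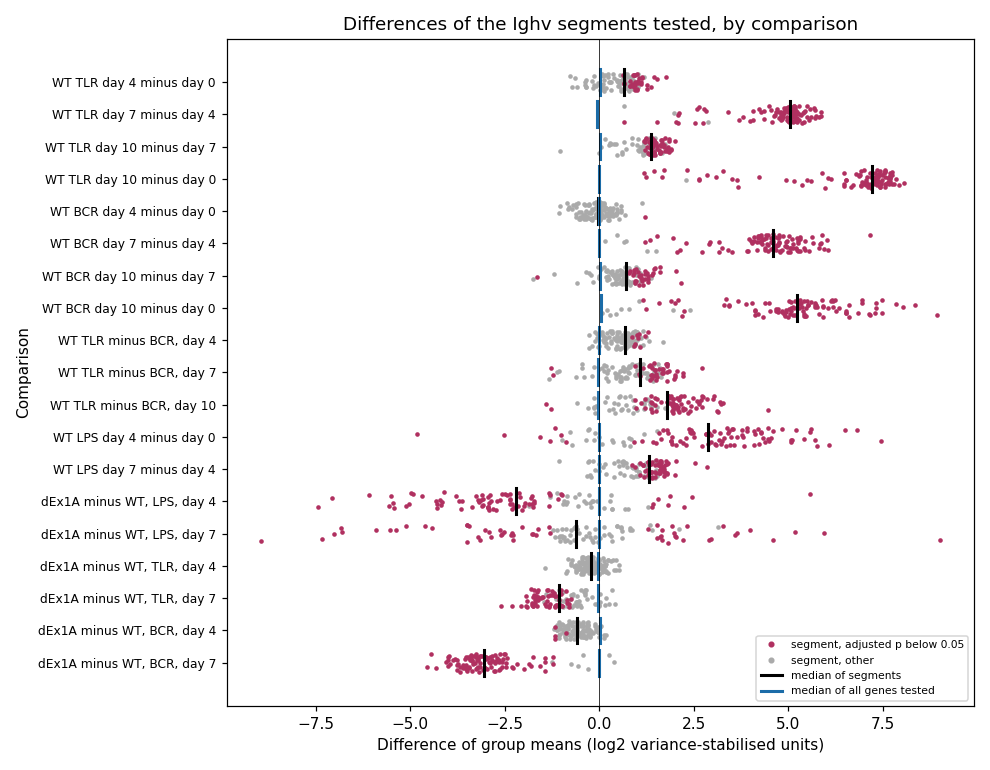
Difference of group means (log2 units) of each Ighv segment tested in 19 comparisons, with segments past the adjusted threshold in red, their median in black and the median of all genes tested in blue. The black medians run from -3.06 (dEx1A minus WT, BCR, day 7) to 7.21 (WT TLR day 10 minus day 0), while the blue ones stay between -0.06 and 0.05.

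The Ighv segments moved with the other immunoglobulin genes. The 3 genes whose means over the 15 groups followed the median Ighv segment most closely were kappa light chain V segments, Igkv15-103 (Pearson r = 0.997), Igkv8-19 (0.996) and Igkv6-23 (0.995), given as a description. Over the 13 groups without wild type LPS they were Igkv4-80 (Pearson r = 0.998), Igkv15-103 (0.998) and Igkv4-55 (0.996), with Igkv8-19 and Igkv6-23 at ranks 4 and 7. Of 99 kappa V segments tested, 99 rose from TLR day 4 to day 7 with a median of 5.19, and 94 from BCR day 4 to day 7 with a median of 4.62, beside 17.7% and 15.3% of all genes rising in these steps. Of the 8 heavy chain constant genes, 7 rose in each of these steps and Ighe, of the IgE class, did not pass (0.24, SE 0.41, adjusted p = 0.687 in TLR; 0.48, SE 0.41, adjusted p = 0.42 in BCR). Ighm, of the IgM class, rose by 4.72 (SE 0.33) in TLR and 3.73 (SE 0.33) in BCR. Ighv levels per 100 of the summed constant gene level were 8.93 to 10.1 at day 0, 23.5 to 31.9 at TLR day 10 and 23.9 to 37.5 at BCR day 10.

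Among the 7 plasma cell factors, 6 rose from TLR day 4 to day 7 and 5 from BCR day 4 to day 7, where 17.7% and 15.3% of all genes rose and 36.3% and 30.5% changed in either direction. The list holds activators of the plasma cell state and factors that hold B cells back from it, and of the latter Bach2 and Bcl6 rose in both cultures while Pax5 did not pass in either. Prdm1 rose by 3.40 (SE 0.31) in TLR and 2.71 (SE 0.31) in BCR. Xbp1, the driver of the secretory apparatus, rose by 2.23 (SE 0.28) and 2.10 (SE 0.28). Ell2, an elongation factor that favours the secreted form of heavy chain RNA, rose in TLR (2.67, SE 0.28) and not past the threshold in BCR (0.65, SE 0.28, adjusted p = 0.0945). Of the 3 octamer factors, which act on V promoters, Pou2f2 rose in both (0.90, SE 0.18, and 2.00, SE 0.18), Pou2af1 in TLR (0.77, SE 0.26), and Pou2f1 in neither. Between day 0 and TLR day 4, Rag1, a subunit of the recombinase, fell from a mean of 6.92 to the value of a count of 0 in all 3 TLR libraries.

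TLR and BCR cultures differed in the level of many segments. TLR was above BCR for 9 of 108 at day 4 (4.3% of all genes), for 40 at day 7 (3.77%) and for 69 at day 10 (4.29%), with medians of 0.68, 1.07 and 1.80. It was below for 0, 2 and 2 segments (3.27%, 2.5% and 10.1% of all genes). Calls in either direction covered 7.57%, 6.27% and 14.4% of all genes. At day 4 no segment lay lower even at an unadjusted p below 0.05, and voom called 6 in all. Leaving out any 1 of the 6 day 4 libraries left 1 to 5 calls, and with only these 6 in the fit there were 38. At day 7 the total of 42 calls became 22 without TLR replicate 1, 25 without TLR replicate 2, and 23 without BCR replicate 1 or 2. At day 10 the range on leaving out a library was 53 to 92 of 71, and with only the 6 day 10 libraries in the fit 1 segment was called. In the test of the difference between the day 4 to day 7 changes of both cultures (limma interaction), 0 of 108 segments passed, with a median of 0.39 (0.862% of all genes changed more in TLR, 0.826% more in BCR, 1.69% either). At an unadjusted p below 0.05 there were 13, by voom 0 at the adjusted threshold, and 5 with only the libraries compared in the fit.

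The segments below in TLR stood against the median of the locus. Ighv10-3 read 14.64, 14.25 and 14.30 at TLR day 7 and 15.52, 15.64 and 15.69 at BCR day 7, so that every BCR library was above every TLR library (-1.22, SE 0.34, adjusted p = 0.0384). At day 10 it read 15.26, 15.61 and 16.06 in TLR and 16.68, 16.20 and 17.85 in BCR, again without overlap (-1.27, SE 0.34, adjusted p = 0.0205). Ighv14-4 read 12.43, 12.65 and 12.37 in TLR and 13.25, 13.95 and 14.09 in BCR at day 7 (-1.28, SE 0.30, adjusted p = 0.0172), and at day 10 the groups overlapped (-0.29, SE 0.30, adjusted p = 0.581). Ighv3-5 was lower in TLR at day 10 (-1.41, SE 0.33, adjusted p = 0.0119), with 12.04, 12.45 and 11.79 against 13.80, 12.33 and 14.38, where BCR replicate 2 fell among the TLR libraries. The largest differences the other way were those of Ighv1-20 (2.73, SE 0.57) at day 7 and of Ighv1-49 (4.46, SE 0.55), Ighv1-34 (3.27, SE 0.56) and Ighv2-5 (3.23, SE 0.39) at day 10.

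Shares of the summed Ighv level, which remove the difference in total, showed the same segments and are given as descriptions with no test. Ighv10-3 held 1.26, 1.44 and 1.47% at day 0, 2.01, 1.54 and 1.83% at TLR day 7 and 1.12, 1.79 and 2.14% at TLR day 10. In BCR it held 1.68, 1.53 and 2.57% at day 4, 8.32, 8.23 and 6.19% at day 7 and 8.67, 10.1 and 8.98% at day 10. All 6 later BCR libraries were thus above all TLR and day 0 libraries, and the mean over days 7 and 10 was 4.84 times the TLR mean. Ighv10-1, which differs from it at the capitals above, held 4.3, 3.46 and 3.20% at BCR day 7 and 3.02, 2.83 and 3.62% at day 10, against 2.40, 1.93 and 2.57% and 1.3, 1.81 and 2.36% in TLR. Its level did not pass the test between the cultures at day 7 (0.19, SE 0.39, adjusted p = 0.831) or day 10 (0.41, SE 0.39, adjusted p = 0.548).

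Ighv1-26 moved the opposite way. Its share was 9.49, 9.24 and 8.70% at TLR day 7 and 8.56, 8.99 and 8.57% at TLR day 10, close to day 0. In BCR it was 7.25, 7.28 and 6.62% at day 4, 4.43, 4.38 and 5.03% at day 7 and 2.82, 3.17 and 3.96% at day 10, lower at each step with no overlap between days. Its level was higher in TLR at day 7 (1.84, SE 0.35, adjusted p = 0.00465) and day 10 (2.64, SE 0.35, adjusted p = 0.000277). Ighv3-6 took its place as the highest segment per base at BCR day 10, with 10.4, 10.2 and 13.1% against 4.95, 5.97 and 5.50% at TLR day 10. Per base, Ighv3-6, Ighv10-3, Ighv6-6, Ighv6-3 and Ighv1-26 led at BCR day 10, and Ighv1-26, Ighv3-6, Ighv6-3, Ighv9-3 and Ighv8-8 at TLR day 10.

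**Figure D4:**
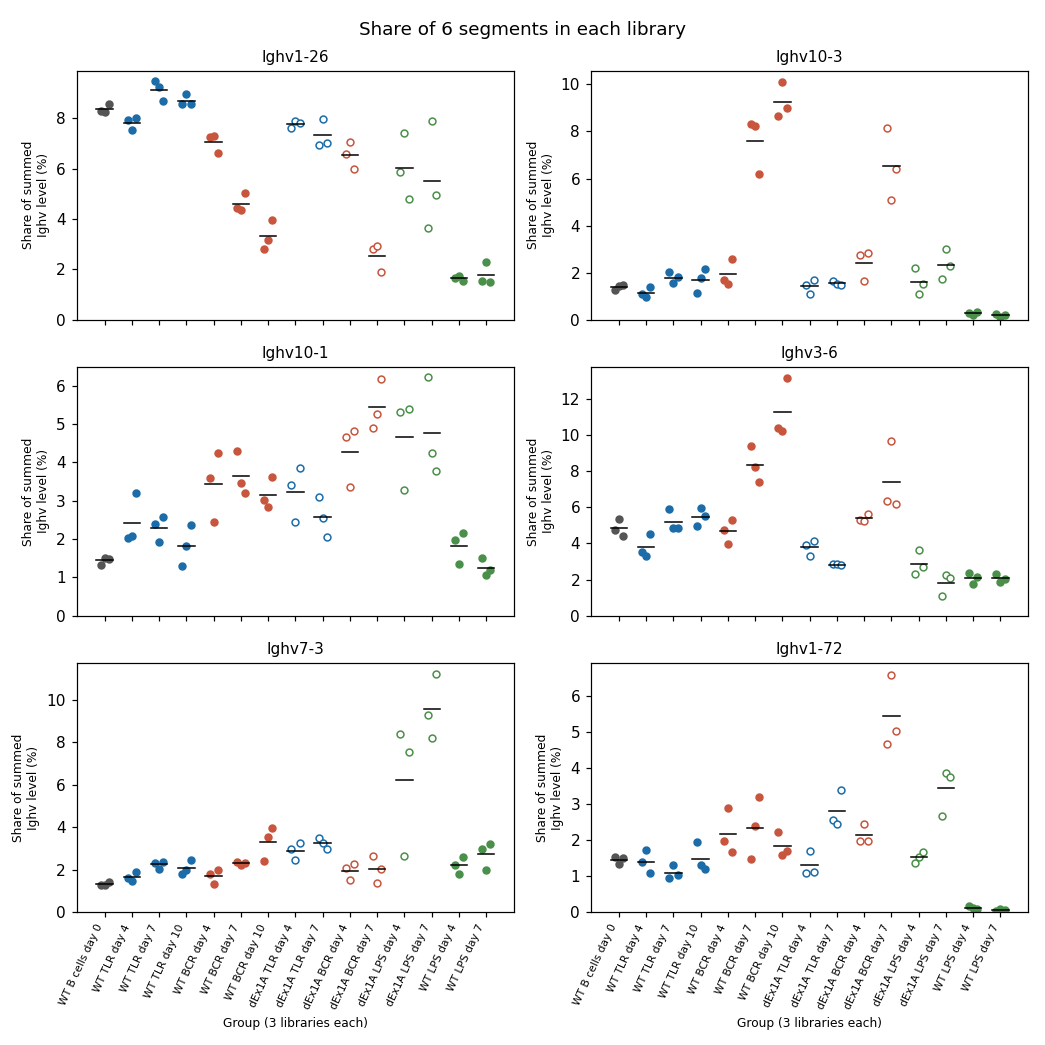
Share of 6 segments in the summed Ighv level (percent) in each library, filled for wild type and open for dEx1A, with a bar at the mean of 3 libraries. Ighv10-3 lies between 5.09 and 10.1% in the day 7 BCR libraries of both genotypes and the wild type day 10 BCR libraries. It lies at 3.00% or lower elsewhere, and Ighv7-3 is highest in the dEx1A LPS libraries.

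Counted over segments with at least 0.1% in either group, few shares changed in TLR and many in BCR. From day 0 to TLR day 10, 0 of 91 shares at least doubled and 8 fell to 50% or less, while from day 0 to BCR day 10, 12 of 91 doubled and 33 fell to 50% or less. Between days 0 and 4 of BCR the counts were 2 and 3 of 91. By family, the Ighv1 share was 54.3% ± 1.37 (SD, n = 3) at day 0, 53.3% ± 3.94 at TLR day 10 and 34.6% ± 2.70 at BCR day 10. The 2 Ighv10 segments went from 2.83% ± 0.217 to 12.4% ± 0.637 at BCR day 10 (3.51% ± 1.04 in TLR), the 6 Ighv3 segments from 6.59% ± 0.611 to 15.2% ± 2.41, and the 5 Ighv6 segments from 4.66% ± 0.367 to 10.7% ± 0.798. The middle 37 segments of the locus, which include Ighv3-6, Ighv6-6 and Ighv10-3, went from 41.9% at day 0 to 54.1% at BCR day 10. The inverse Simpson index, the number of equally used segments that would give the same concentration, was 42.5 ± 0.673 at day 0, 38.7 ± 1.66 at TLR day 10 and 26.1 ± 2.23 at BCR day 10.

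Other segments lost share in both cultures. Ighv5-2, of the 112 the nearest to the D segments, held 0.567, 0.435 and 0.473% at day 0 and 0.0213 to 0.129% in the TLR and BCR libraries of days 7 and 10. Its log2 level still rose, by 4.95 (SE 0.43) to TLR day 10 and 2.24 (SE 0.43) to BCR day 10. Ighv12-3, a further segment typical of B1 cells, held 0.317, 0.303 and 0.235% at day 0 and 0.0214 to 0.0676% in the same libraries, while its level rose by 3.68 (SE 0.52) to TLR day 10 and 3.29 (SE 0.52) to BCR day 10. Day 0 and later libraries did not overlap in either share.

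The dEx1A cultures without the wild type LPS libraries gave the genotype comparison. At day 4, 0 of 110 segments passed in TLR (4.08% of all genes were higher, 3.14% lower and 7.23% either), with a median of -0.22, 6 lower at an unadjusted p below 0.05 and 0 by voom. In BCR at day 4, 4 were lower (0.669% of all genes) and 0 higher (1.19%), with a median of -0.59, and 28 were lower at an unadjusted p below 0.05. Ighv1-64 read 9.16, 9.05 and 9.32 in wild type and 8.02, 7.96 and 8.02 in dEx1A (-1.18, SE 0.22, adjusted p = 0.00133), and Ighv14-2 (-1.17, SE 0.27), Ighv1-53 (-1.17, SE 0.31) and Ighv1-26 (-0.89, SE 0.21) were the others. Without wild type replicate 1 or 3, or dEx1A replicate 2 or 3, the count was 1 or 2, and by voom 3. It was 8 with only the libraries compared in the fit and 13 after the GC and length correction.

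At day 7 most of the locus was lower in dEx1A, with the larger median in BCR. In TLR, 62 of 110 were lower in dEx1A and 0 higher (28.7% and 26.2% of all genes, 54.8% either), with a median of -1.07, and no segment was higher at an unadjusted p below 0.05. In BCR, 103 of 110 were lower and 0 higher (25% and 25.8% of all genes), with a median of -3.06. The summed level was 478201 to 720899 in dEx1A TLR libraries against 1102600 to 1270622 in wild type, a fold of 2.02 between means. In BCR it was 71926, 50958 and 117960 against 564655 to 853445, a fold of 8.46. Voom called 66 and 102. The genotype difference itself grew from day 4 to day 7 for 20 of 110 segments in TLR (25.1% of all genes) and for 89 of 110 in BCR (17.5%), with 0 moving the other way in either (24.3% and 16.4% of all genes), also at an unadjusted p below 0.05. The share of segments called was thus under the background in TLR and over it in BCR, and voom called 16 and 67. The TLR count of 20 became 12 without wild type TLR day 4 replicate 2 and 13 without dEx1A TLR day 4 replicate 3, and it was 57 with only the libraries compared in the fit and 48 after the GC and length correction. Whether the genotype differences differed between TLR and BCR was not tested.

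Single segments followed this order. Ighv1-26 read 14.61, 14.73 and 15.39 in wild type and 10.99, 10.56 and 11.14 in dEx1A at BCR day 7 (-4.01, SE 0.21, adjusted p = 1.91e-15), and 16.88, 16.83 and 16.55 against 15.35, 15.22 and 15.63 at TLR day 7 (-1.35, SE 0.21, adjusted p = 4.15e-06). Both pairs of groups were apart. Ighv10-3 differed by -3.36 (SE 0.38) in BCR and -1.24 (SE 0.38, adjusted p = 0.00691) in TLR. The largest falls in BCR were those of Ighv15-2 (-4.56, SE 0.50), Ighv3-4 (-4.46, SE 0.65) and Ighv8-6 (-4.32, SE 0.44), on few reads in dEx1A: 24, 9 and 32 for Ighv15-2, 131, 29 and 267 for Ighv3-4 and 1, 1 and 0 for Ighv8-6. In TLR they were those of Ighv15-2 (-2.60, SE 0.50), Ighv1-71 (-2.30, SE 0.34) and Ighv1-31 (-2.07, SE 0.61). Ighv1-71 shares its V exon with Ighv1-62-2, so its value is uncertain.

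Other gene groups moved alongside at day 7, in comparisons where 25% of all genes were lower in dEx1A in BCR and 28.7% in TLR, and 50.8% and 54.8% changed in either direction. All 7 plasma cell factors were lower in dEx1A in BCR and 6 in TLR, the exception being Irf4 (-0.17, SE 0.18, adjusted p = 0.428). Prdm1, counted over the whole gene, was lower by 2.15 (SE 0.28) in BCR and 1.38 (SE 0.28) in TLR; this does not measure the deleted exon. Bach2 and Bcl6, which hold B cells back from it, were lower too (-3.63, SE 0.16, and -3.16, SE 0.16, in BCR). Of the 3 octamer factors, 3 were lower in BCR and 2 in TLR. Of 100 kappa V segments, 93 were lower in BCR with a median of -3.09, and 53 were lower and 1 higher in TLR with a median of -1.22. The dEx1A day 7 libraries of TLR and BCR held 16.3 to 19.5 M reads and the wild type ones 22 to 35.6 M. Their fibroblast (feeder) markers summed to 4824 to 6915 in dEx1A BCR, against 365 to 431 in wild type BCR, with Dcn at a count of 0 in both, and B1 cell markers to 22622 to 30092 in dEx1A TLR against 9385 to 9755. The segments typical of B1 cells were not higher in dEx1A TLR with these markers. Ighv11-2 held 0.0556 to 0.0927% of the summed Ighv level there, against 0.0719 to 0.155% at wild type TLR day 7. Ighv12-3 held 0.0301 to 0.0347% against 0.0328 to 0.0493%. The part of depth and of feeder or B1 cells in the result was not tested.

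The preference of single segments for the BCR culture was also present in dEx1A, whose libraries are separate from the wild type ones. Over 82 segments with at least 0.1% in 1 of the cultures of each genotype, 66 had a day 7 BCR to TLR share ratio on the same side of 1 in wild type and dEx1A, and the Spearman rho across segments was 0.675, as a description. The share at least doubled in 10 segments in wild type and in 10 in dEx1A, of which 7 were shared: Ighv1-4, Ighv1-56, Ighv1-74, Ighv3-5, Ighv3-8, Ighv10-3 and Ighv14-4. Segments below 0.1% in 1 culture entered only through the other, which fixed the side of their ratio. Ighv1-56 held means of 0.0230% at wild type and 0.0234% at dEx1A TLR day 7. Its doubling in both genotypes was thus fixed by the 0.1% limit. Ighv3-5 entered through BCR alone in dEx1A (0.0965% in TLR). Ighv10-3 had a ratio of 4.23 in wild type and 4.24 in dEx1A, from 8.14, 5.09 and 6.42% at dEx1A BCR day 7 and 1.67, 1.51 and 1.46% at dEx1A TLR day 7. Ighv14-4 had ratios of 4.44 and 5.19, and Ighv3-5 of 3.90 and 6.82. The ratio was 0.5 or less in 4 segments in wild type and 19 in dEx1A, with 3 shared (Ighv1-20, Ighv1-54 and Ighv1-80), and 0 segments doubled in 1 genotype and fell to 50% in the other.

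**Figure D5:**
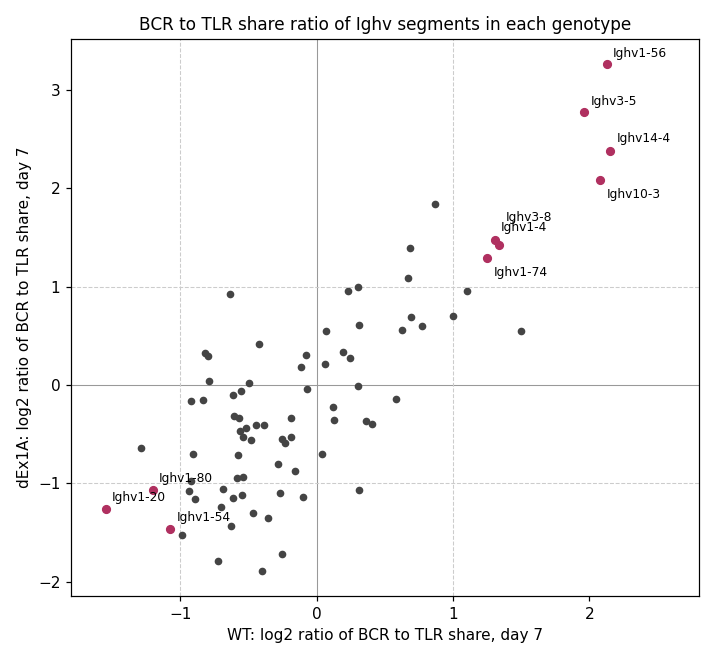
Ratio of the mean BCR to the mean TLR share at day 7 (log2) in wild type (x axis) and dEx1A (y axis) for 82 Ighv segments, 1 point each, with dashed lines at a doubling and at 50%. The 7 segments doubled in both genotypes lie at the upper right, with Ighv10-3 at ratios of 4.23 and 4.24, and the 3 that fell to 50% or less in both lie at the lower left.

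Shares were also compared between genotypes within a culture. At day 7, 6 of 87 shares at least doubled and 3 fell to 50% or less in dEx1A TLR against wild type TLR, and 4 and 4 of 87 in BCR, although the summed BCR level was 8.46 times lower. At day 4 the counts were 0 and 1 of 88 in TLR and 0 and 0 of 90 in BCR. Ighv1-72, for example, held 4.67, 6.59 and 5.03% at dEx1A BCR day 7 against 1.46, 2.38 and 3.18% at wild type BCR day 7, with the caution on its near-identical copy given above.

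In LPS the dEx1A libraries of day 7 were held by few segments. They needed 8 to 11 segments for 50% of the level. Their inverse Simpson index was 26.6 ± 3.91 (SD, n = 3), close to that of wild type BCR day 10 given above. Their shares overlapped by 68.5 to 82.4% between replicates. Ighv7-3 led in 2 of the 3, with 9.31 and 11.2% in replicates 1 and 3 and 8.19% in replicate 2, against 3.5, 3.26 and 2.98% at dEx1A TLR day 7 and 1.27 to 1.43% at day 0. Replicate 2 was led by Ighv1-53 with 9.95%. The dEx1A LPS sums were 37279, 25125 and 49584 at day 4 and 437575 to 551022 at day 7.

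Comparisons with wild type LPS are given with the difference in V content described above, which was not separated from culture or genotype. Wild type LPS day 4 was above day 0 for 84 of 110 segments and below for 7 (27.3% and 30.8% of all genes, 58% either), with a median of 2.88. Day 7 was above day 4 within wild type LPS for 54 and below for 0 (4.75% and 3.65% of all genes, 8.4% either), with 0 below at an unadjusted p below 0.05, and the count was 31 without day 7 replicate 3 and 34 without day 4 replicate 1. Voom called 55. In dEx1A LPS against wild type LPS, 8 were higher and 74 lower at day 4 (12.6% and 11.8% of all genes; median -2.21), and 24 higher and 35 lower at day 7 (3.3% and 3.78%, 7.08% either; median -0.60). The summed level was 158806 to 170823 at wild type LPS day 4 and 415696 to 533260 at day 7, so the dEx1A sums were lower at day 4 and overlapped at day 7. The kappa V segments, on another chromosome, were lower in dEx1A for 80 of 100 at day 4 (median -2.26) and 25 at day 7, with 4 higher.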

How the data were processed

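Single-end RNA-seq libraries (76 bases, TruSeq Stranded Total RNA) from 45 samples in 15 groups of 3 were used. Per the submitters' processing notes, tools included Trim Galore 0.6.0, STAR 2.6.0c, RSEM 1.3.0 and DESeq2 1.22.2. They name mouse and human builds without a role (GRCm38.p6, mm10 and GRCh38.p12), and no source used here gives the strand setting. The authors deposited log2 values from a variance-stabilising transformation of RSEM gene estimates, in a wild type table (21 libraries) and a table of both genotypes (39 libraries). The members and gene lists were chosen with earlier results of these data known.

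Values were inverted to a normalised linear level. Reads recovered from them were whole within 0.1 for 95.2 to 100% of values. Group means were fitted with limma 3.58.1 in R 4.3.3 (all groups of a table, trend, Benjamini-Hochberg over all genes that stood at least 1 log2 unit above the lowest value in 3 libraries: 19497 and 20331 genes, of which 108 and 110 Ighv segments). Adjusted p-values below 0.05 count as called. On simulated data 85% of 2-fold and 100% of 4-fold changes were recovered, and 4.64% of the calls were false, over 16384 genes. Shares and levels are descriptions without a test. Rankings called per base were taken per base of the annotated transcript. Shares, and the leads of single segments stated from them, were not corrected for transcript length. Sequences, positions and identities come from GENCODE M21 transcripts and annotation (Biopython 1.88), matching 97.5% of all gene identifiers. Segments were named when among the 10 highest per base at day 0 or over the wild type day 10 libraries, when among the 3 largest rises or falls of a comparison past the threshold with groups that did not overlap, or when above 10% of a library's Ighv level. Ighv5-2, Ighv11-2, Ighv12-3 and Ighv1-72 were on a fixed list, for their position or known biology. Ighv1-4, Ighv1-54, Ighv1-74, Ighv1-80 and the pseudogenes Ighv1-14 and Ighv3-2 were named after their values were seen. Alternatives are given in the closing section.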

Additional observations from a re-analysis of the deposited data

Results flagged for a closer look

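The 11 segment results below were named as the largest rises or falls past the threshold in these same comparisons. That they pass was therefore fixed by the naming rule. In them the genotype difference changed between day 4 and day 7 by the limma interaction term, given here as the day 7 difference (dEx1A minus wild type) minus the day 4 difference in log2 units. In BCR it was -4.24 for Ighv15-2 (SE 0.71, adjusted p = 4.27e-05), -4.01 for Ighv8-6 (SE 0.62, adjusted p = 1.37e-05) and -3.63 for Ighv3-4 (SE 0.92, adjusted p = 0.00341). In TLR it was -2.70 for Ighv15-2 (SE 0.71, adjusted p = 0.00238), -2.43 for Ighv1-71 (SE 0.48, adjusted p = 0.000167) and -1.90 for Ighv13-2 (SE 0.40, adjusted p = 0.000321).

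In LPS the change of the genotype difference was 4.53 for Ighv1-72 (SE 0.47, adjusted p = 4.36e-07), 3.44 for Ighv5-16 (SE 0.49, adjusted p = 9.57e-05), 3.41 for Ighv3-5 (SE 0.96, adjusted p = 0.0319), -1.26 for Ighv1-62-1 (SE 0.33, adjusted p = 0.0213) and -1.51 for Ighv7-2 (SE 0.31, adjusted p = 0.00293). In total 43 of 110 segments changed upward and 2 downward in LPS (3.3% and 2.18% of all genes, 5.48% either). Each of these LPS values sets the wild type LPS libraries, whose V content stood apart, against dEx1A. Ighv5-16 had 0 reads in all wild type LPS libraries and Ighv7-2 at most 2 in any dEx1A library, so their fitted sizes depend on the transformation and are no measure of a fold. Ighv1-62-1 stood at the value of a count of 0 in 3 of 3 dEx1A LPS day 4 libraries and 2 of 3 of day 7. The caution on the near-identical copy of Ighv1-72 holds here as well. By voom on recovered reads both downward values turned positive, to 0.26 for Ighv1-62-1 (adjusted p = 0.901) and 0.041 for Ighv7-2 (adjusted p = 0.983), so neither has a direction that holds over the tools. Ighv1-62-1 also missed the threshold without dEx1A day 4 replicate 1 (adjusted p = 0.0501), dEx1A day 7 replicate 2 or 3 (0.0711 and 0.0731), wild type day 4 replicate 2 (0.0821) or wild type day 7 replicate 1 (0.0646). Both sides of these comparisons were LPS cultures. In them the V content of the wild type LPS libraries cannot be told apart from genotype.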

How the results depend on the processing

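Over the counts of called segments, 256 alternative values were within 1.5 times the reported count and 44 were not; for the other values (named segments, counts by direction, shares and indices) 6391 stayed as reported, 271 lost and 138 gained the threshold, 114 moved and 4 changed sign. With only the compared groups in the fit, the counts were 71 (WT TLR day 4 minus day 0), 21 (WT BCR day 4 minus day 0), 0 (WT BCR day 10 minus day 7), 38 and 1 (TLR minus BCR, days 4 and 10), 8 (dEx1A minus WT, BCR day 4), 5 (change from day 4 to day 7, TLR minus BCR) and 57 (change of the genotype difference in TLR). With a GC and length correction they were 10 (TLR day 4 minus day 0, all lower), 35 (BCR day 4 minus day 0, all lower), 17 (BCR day 10 minus day 7), 13 (dEx1A minus WT, BCR day 4), 1 (change, TLR minus BCR) and 48 (genotype change, TLR), and Ighv1-26 and Ighv12-3 in WT LPS day 4 minus day 0 turned to -0.23 and -1.12. By voom on recovered reads BCR day 4 minus day 0 gave 3, and in the LPS genotype change Ighv7-2 and Ighv1-62-1 turned to 0.041 and 0.26. The cause was not tested.

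Leaving out 1 library gave 14 to 24 calls for TLR day 4 minus day 0, 0 to 1 for BCR day 4 minus day 0, 1 to 5 and 22 to 40 for TLR minus BCR at days 4 and 7, 33 to 53 for TLR day 10 minus day 7, 15 to 64 for BCR day 10 minus day 7, 31 to 52 for LPS day 7 minus day 4, 12 to 23 for the genotype change in TLR and 1 to 3 for dEx1A minus WT in BCR at day 4.

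Replicate numbers share no stated animal or batch. Over 63 pairs of wild type libraries with the same number, correlations of deviations from group means ran from -0.61 to 0.82, with 25 over 0.1 (dEx1A: 45 pairs, median 0.12, 23 over 0.1; wild type LPS: 3 pairs, 0 over 0.1). Over the Ighv segments alone all 3 wild type LPS pairs were over 0.1 (0.16 to 0.34, against 0 of 6 pairs of different numbers), as were 21 of 45 in dEx1A. Since not every pair was over 0.1 on all genes, the numbers were not taken as pairs. V shares of libraries with the same number overlapped more than those of different numbers in 12 of 21 pairs of wild type day 0, TLR and BCR groups. The same held in 15 of 15 dEx1A pairs and in the 1 wild type LPS pair. Whether libraries of the same number shared a source was not tested, and the main fit does not account for it. With a replicate block the counts were 3 for BCR day 4 minus day 0, 7 for dEx1A minus WT in BCR at day 4 and 32 for the genotype change in TLR, and the other counts stayed within 1.5 times. Motif searches of promoters and recombination signals were not run. Depth limits calls for segments with few reads, such as Ighv8-6 in dEx1A BCR.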
